A study of Homo sapiens with 4 samples.

Results

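H3K9me3, trimethylation of lysine 9 on histone H3, marks constitutive heterochromatin. It is written by enzymes such as SUV39H1, SUV39H2 and SETDB1 and is read by heterochromatin protein HP1, and it is best known over the satellite DNA of centromeres. On chromosome arms it is also known over tandem repeat arrays, transposable elements and clusters of KRAB zinc finger genes, where it can extend as broad domains. The regions described here are the long ones on the arms: autosomal H3K9me3 regions whose end minus start was 8000 bp or more and whose midpoint lay over 6 Mb from the midpoint of the centromere. They numbered 159, out of 5211 regions in the whole list, 3382 on autosomes, 2728 on autosomes beyond the same distance, and 367 long autosomal regions. The members were thus chosen by the called length and position of each region, so these values are given as descriptions, and no test of them was made.

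The list came from ChIP-seq, the sequencing of immunoprecipitated chromatin, of BJ-HELT cells, immortal human foreskin fibroblasts that express the telomerase subunit hTERT and the early region of SV40, taken at passage 10 to 11. All 4 libraries were from this 1 line without treatment: 2 were H3K9me3 precipitates and 2 were input DNA. A single list of regions stood for all 4, with 1 whole-number count per region that has the form of ChIP reads in the region, so no value has a replicate error and no library could be compared with another. Density below is that count divided by the length in kb, and intervals given with densities are exact 95% Poisson intervals that cover counting error only. Positions are in hg19, counted from 1.

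The long regions made up 3.05% of the list and held 10.6% of its covered length and 7.02% of its count. Against autosomal regions beyond the same distance from the centromere they accounted for 5.83% by number, 21.5% by covered length and 32.3% by count. Together they covered 2.64 Mb with 156354 counts. Their length ran from 8.2 to 116.0 kb, with a median of 11.0 kb and quartiles of 9.4 and 18.4 kb. By length, 61 were under 10 kb and 98 were 10 kb or more, of which 34 were 20 kb or more and 6 were 50 kb or more. The median count was 424 and ranged from 199 to 11024. In counts per kb, density had quartiles of 28.9, 36.8 and 51.8, the middle one being the median.

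Because the listed regions lie on a grid of 200 bp and the deposited end is the last base of a region, the length minimum admitted regions from 8200 bp. The 5 regions of 8.2 kb just inside had counts between 208 and 298, and the 7 regions of 8.0 kb just outside had counts between 211 and 276. The first of each in genome order were on chromosome 10 at 132225001 to 132233200 (215 counts) and on chromosome 6 at 161272601 to 161280600 (212 counts). By distance, the nearest member lay 6.36 Mb from its centromere midpoint on chromosome 2 (87639801 to 87649600, 9.8 kb, 550 counts), and the nearest long region left out lay at 5.797 Mb on chromosome 19 (20198001 to 20208400, 10.4 kb, 333 counts). Values just inside and just outside the length minimum overlapped.

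The distance rule did not take every member far from centromeric heterochromatin. On chromosome 1 no region was listed between 121476200 and 142535401, a stretch of 21.1 Mb that holds the centromere midpoint, and on chromosome 9 none was listed between 47191400 and 65792001, a stretch of 18.6 Mb. Both chromosomes are known for large blocks of satellite heterochromatin on the long arm next to the centromere, which hg19 holds mostly as unassembled sequence. Within 6 Mb of the far edge of these stretches lay 17 members on chromosome 1 and 14 on chromosome 9. These 31 members covered 684.0 kb, with a median length of 16.6 kb and a median density of 44.2 counts per kb. The 14 on chromosome 9 alone had a median density of 85.8. On 1q, the 18 members from 142535401 to 148927800, which include these 17, had one of 42.0. The other 128 had a median length of 10.4 kb and a median density of 35.0. With distance counted from the edge of such a stretch on every autosome, 125 members remained and covered 1883.6 kb. In what follows the 1q and 9q edge regions are named as such.

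**Figure D1:**
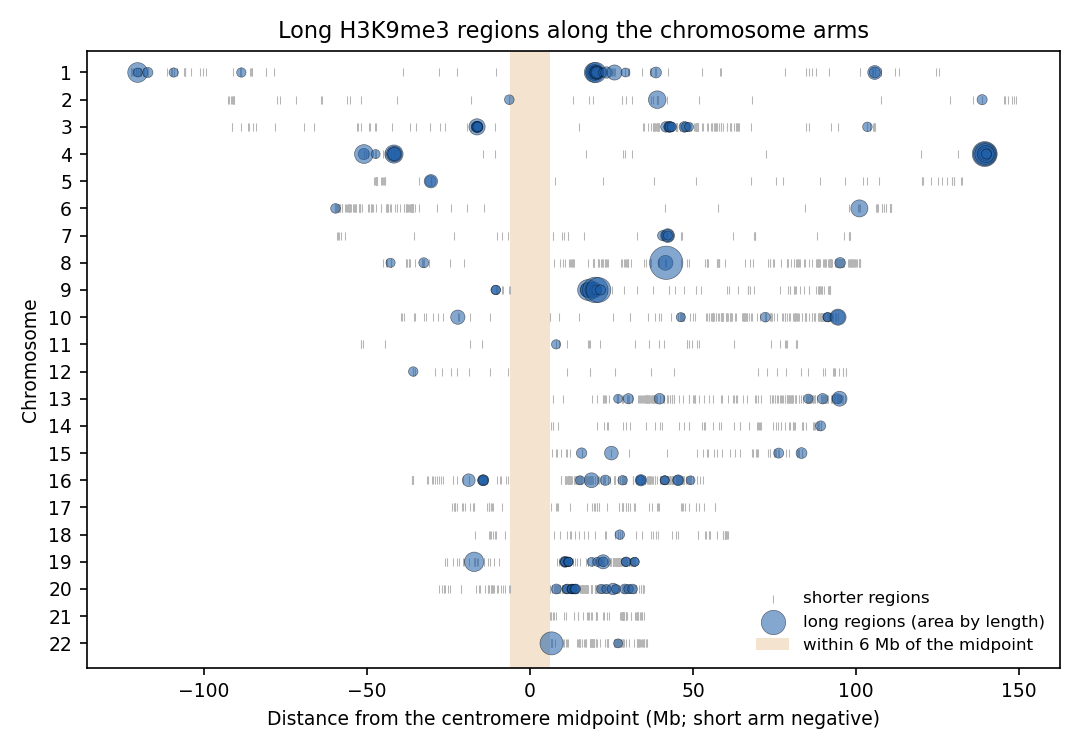
Position of the 159 long regions on the 22 autosomes, as distance in Mb from the centromere midpoint (short arm negative). Circles are long regions with area proportional to length, grey ticks are shorter autosomal regions beyond 6 Mb, and the shaded band spans 6 Mb on either side of the midpoint. Large circles pile up on chromosomes 1 and 9 about 20 Mb from the midpoint and at the long-arm end of chromosome 4, whereas the 16 circles on 20q are small and spread along the arm.

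Long regions were found on 20 of the 22 autosomes. Chromosome 1 had 27, chromosome 16 had 17, chromosomes 9 and 20 had 16 each, chromosomes 3 and 19 had 15 each, and chromosome 4 had 13. Chromosomes 11, 12, 14 and 18 had 1 each. These single members were 9 kb on 11q (60997801 to 61006800, 40.3 counts per kb), 9.4 kb on 12p (160401 to 169800, 37.8), 10.6 kb on 14q (107161401 to 107172000, 41.98) and 9.6 kb on 18q (44548001 to 44557600, 73.3). Chromosomes 17 and 21 had none among 65 and 58 regions beyond the distance limit. Their longest such regions measured 7.2 and 6.8 kb, while 10 and 30 long regions lay nearer their centromeres. As a share of the regions beyond that limit, long ones were most frequent on chromosome 4, with 28.9% (13 of 45), chromosome 1, with 19.3% (27 of 140), and chromosome 9, with 14.95% (16 of 107). Of those members, 17 of the 27 on chromosome 1 and 14 of the 16 on chromosome 9 were at the 1q and 9q edges. Chromosomes 20 and 16, which had the most regions beyond the limit, had shares of 4.42% (16 of 362) and 5.50% (17 of 309).

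Chromosomes 1, 4 and 9, picked out after their values were seen, held 56 members (35.2%) but 46.9% of the covered length and 51.6% of the count. Their members had a median length of 16.4 kb and a median density of 44.1 counts per kb. Of these 56, 31 were at the 1q and 9q edges. The 62 members on chromosomes 3, 10, 13, 16 and 20 had a median length of 10.0 kb and a median density of 28.9, and held 27.1% of the covered length. The long arm of chromosome 20 was the most uniform among the 10 chromosomes with 5 or more members. Its 16 members, between 36077601 and 59471800, measured 8.4 to 14 kb and had densities from 23.8 to 34.8 counts per kb. They lay among many shorter regions, with a median of 28.5 other listed regions within 1 Mb.

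**Figure D2:**
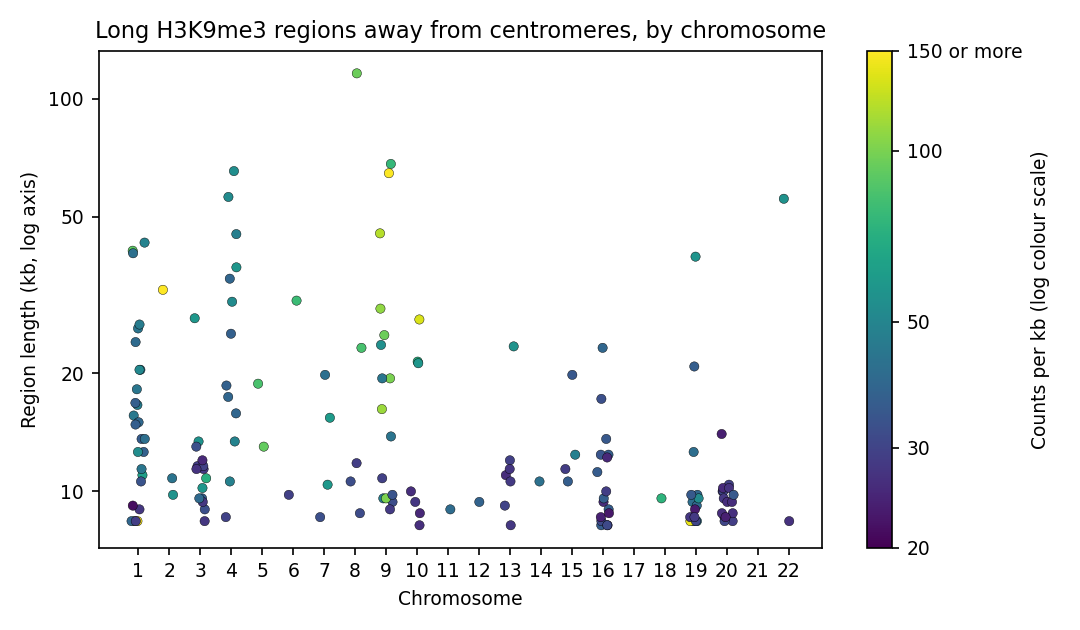
Length of each long region (log axis) by chromosome, with points spread sideways for clarity and coloured by counts per kb (log colour scale, ending at 150 or more). Members on chromosomes 3, 13, 16 and 20 are mostly dark and near 10 kb, while chromosomes 1, 4 and 9 reach 43.0, 65.4 and 68.2 kb, and chromosome 8 has the longest member at 116.0 kb.

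Among the 10 longest members, 3 were on chromosome 4, 3 on chromosome 9, 2 on chromosome 1, and 1 each on chromosomes 8 and 22. These 10 held 22.7% of the covered length and 31.2% of the count of all members. The longest, on chromosome 8 at 86726401 to 86842400, stood nearly alone. Only 1 other listed region lay within 1 Mb, a member of 23.2 kb (86553201 to 86576400) with 1936 counts and 83.4 counts per kb. The longest itself had 11024 counts, the highest of all members, and 95.03 counts per kb (interval 93.3 to 96.8). This part of 8q is known for the REXO1L tandem array, of which the RefSeq table on GRCh38.p14 names 11 copies, all on chromosome 8. Overlap with the array was not computed, since no hg19 annotation was used here.

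Chromosome 9 supplied 3 of the 10 longest, all at the 9q edge. One of 68.2 kb (69007201 to 69075400) had 5215 counts and 76.5 counts per kb, and one of 64.6 kb (69946001 to 70010600) had 9612 counts and 148.8 counts per kb. Another, of 45.4 kb (66781601 to 66827000), had 5451 counts and 120.1 counts per kb. Those 3 differed in density by more than their counting intervals. On chromosome 22 a member of 55.6 kb (21569601 to 21625200) had 3114 counts and 56.0 counts per kb, and at 6.60 Mb from the midpoint it was one of those nearest to the distance limit. Chromosome 1 supplied one of 43.0 kb at the 1q edge (143147401 to 143190400, 2081 counts, 48.4 counts per kb) and one of 41 kb on the short arm (2593201 to 2634200, 3713 counts, 90.6 counts per kb). A smaller neighbour of the latter (2685601 to 2694000, 8.4 kb, 776 counts) had almost the same density, 92.4.

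On chromosome 4, 12 of the 13 members lay at 3 places. At the end of the long arm, between 190470201 and 191037200, 6 members covered 225.2 kb with 11381 counts. From the proximal side they measured 65.4, 56.2, 45.2, 17.4, 30.4 and 10.6 kb, and their densities were 53.6, 52.7, 47.5, 38.4, 52.4 and 48.1 counts per kb. The last of these lay apart from the other 5, which ended at 190831000. This end of 4q is known for the D4Z4 macrosatellite, whose units contain copies of DUX4, a transcription factor of the early embryo that is silenced in most adult tissues. Several shorter regions were listed between the last of the 6 and the other 5. Whether D4Z4 overlaps any of the 6, or only these shorter regions, was not computed. The end of 10q is known for a near-identical array, and 2 members lay there side by side: 21.2 kb (135454601 to 135475800, 1223 counts) with 57.7 counts per kb and 27.4 kb (135476801 to 135504200, 3655 counts) with 133.4. The density of the second was above that of all 6 members at 4q. Whether these 2 members overlap the 10q array was not computed either, so the densities do not compare the arrays. In the RefSeq table on GRCh38.p14, genes named DUX4 or DUX4L number 10 on chromosome 4 and 14 on chromosome 10, of 52 in all.

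The second place was inside 4p, where 4 members between 9223201 and 9371000 measured 15.8, 34.8, 25.2 and 18.6 kb. Their densities were 38.5, 38.6, 36.8 and 36.99 counts per kb, the most alike among the 4 runs of 4 members described further on. This part of 4p is known for the RS447 array of USP17L genes, which encode deubiquitinating enzymes, and the same table names 23 USP17L genes on chromosome 4 out of 29. At the third place, the start of the short arm, members of 13.4 kb (16601 to 30000) and 37.2 kb (31801 to 69000) had 49.4 and 57.4 counts per kb. The remaining member, of 8.6 kb (3623401 to 3632000), had 29.8 counts per kb, below the other 12.

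Another pair lay on distal 1q at 228745801 to 228766200 (20.4 kb, 1049 counts) and 228770401 to 228783000 (12.6 kb, 669 counts), with 51.4 and 53.1 counts per kb. Distal 1q carries the tandem array of 5S ribosomal RNA genes, and all 17 genes named RNA5S in that table are on chromosome 1. The arrays named in these paragraphs are background knowledge of the chromosome bands, chosen after the regions were seen, and stand for no computed overlap.

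Density rose with length among the long regions. The 61 members of 8.2 to 9.8 kb had a median of 30.5 counts per kb, the 48 of 10 to 14.8 kb had 33.9, the 33 of 15 to under 30 kb had 45.3, and the 17 of 30 kb or more had 56.8. The lowest density also rose, from 21.6 in the first of these classes to 23.8, 32.6 and 38.6 in the others. None of the 50 members of 15 kb or more was below 32.6. Over the 159 members Spearman's rho of length with density was 0.56, and without the 31 regions of the 1q and 9q edges it was 0.52. Regions are not replicates, and count and length share the same calls, so the correlations are descriptions only. Among the 2569 shorter regions beyond the distance limit rho was -0.65. There the lowest density per class was 50 for regions under 1 kb, 19.3 for those of 4 to under 6 kb and 19.7 for those of 6 to 8 kb.

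**Figure D3:**
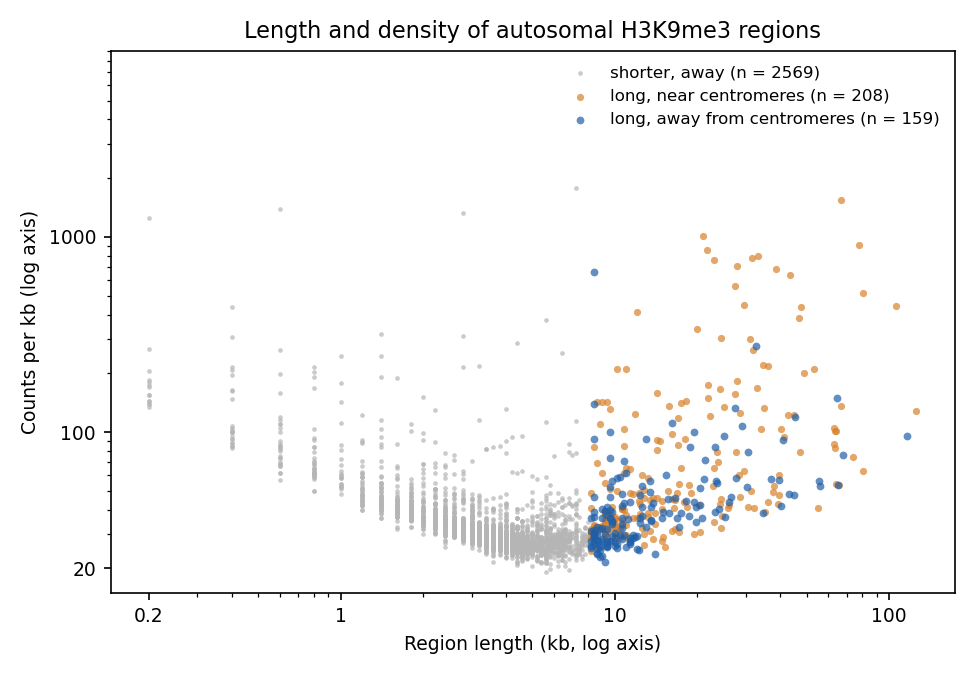
Length against counts per kb (both log axes) for the 159 long regions (blue), 208 long autosomal regions within 6 Mb of the centromere midpoint (orange) and 2569 shorter autosomal regions beyond it (grey). Density falls with length up to about 6 kb and rises above 8 kb, and orange points reach 1549 counts per kb where the highest blue point is at 659.

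Compared with shorter regions beyond the same distance, the long ones had 1.23 times the median density (36.8 against 30 counts per kb). Against regions of 4 to 8 kb, whose median was 27.1, the ratio was 1.36. The classes of 4 to 5.8 kb and 6 to 8 kb had the lowest medians of any length class, at 27 and 27.7. Densities of 50 counts per kb or more were found in 41 of the 159 long regions (25.8%), in 9.42% of the shorter regions and in 2.12% of those of 4 to 8 kb. By chromosome, the median of the long regions was above that of regions of 4 to 8 kb on 19 of 20 chromosomes. The median ratio was 1.41, and 4 of these chromosomes had only 1 member each. The exception was chromosome 20, with a ratio of 0.98. Set against all shorter regions, 14 of 20 chromosomes were above. Chromosomes 4, 10, 12, 13, 15 and 20 were below, with ratios from 0.92 to 0.98. Of the 10 chromosomes with 5 or more members, 6 were above all shorter regions. The ratio to regions of 4 to 8 kb was largest on chromosome 5, at 3.73, which rests on 2 members (17517601 to 17530600 and 17580801 to 17599600, with 92.5 and 83.9 counts per kb). On chromosome 9 it was 2.28 over 16 members, of which 14 were at the 9q edge, with a median of 85.8 counts per kb. The members on 9p had 28.4 and 31.9, near the median of 28.75 for regions of 4 to 8 kb on that chromosome.

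Pooled over the autosomes, long regions near centromeres were longer and denser. Their 208 had a median length of 14.8 kb against 11.0 kb, and a median density of 48.5 counts per kb (quartiles 34.5 and 106.7) against 36.8 (28.9 and 51.8), a ratio of 0.76 for those away from centromeres. At matched length the medians were 33.2 against 30.5 for 8.2 to 9.8 kb, 39.7 against 33.9 for 10 to 14.8 kb, 63.0 against 45.3 for 15 to under 30 kb, and 104.6 against 56.8 for 30 kb or more. The medians of both sets thus lay closest among the shortest and farthest apart among the longest. By chromosome, the median density of the members was the higher on chromosomes 2, 5, 6, 9, 14, 18 and 22. It was the lower on the other autosomes that had both sets. Some of these medians rest on few regions. Chromosome 18 had 1 member at 73.3 counts per kb against 30.4 over 3 near its centromere, and chromosome 22 had 41.3 over 2 members against 40.6 over 21. Densities of 100 counts per kb or more were found in 27.9% of the regions near centromeres and in 5.66% of those away from them (9 of 159), of which 6 were at the 1q and 9q edges. Without these edges 3 of 128 remained. How reads that match several places were treated is not given in the sources used here, and the list holds no input count per region, so the part of repeat copy number in these densities was not tested.

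**Figure D4:**
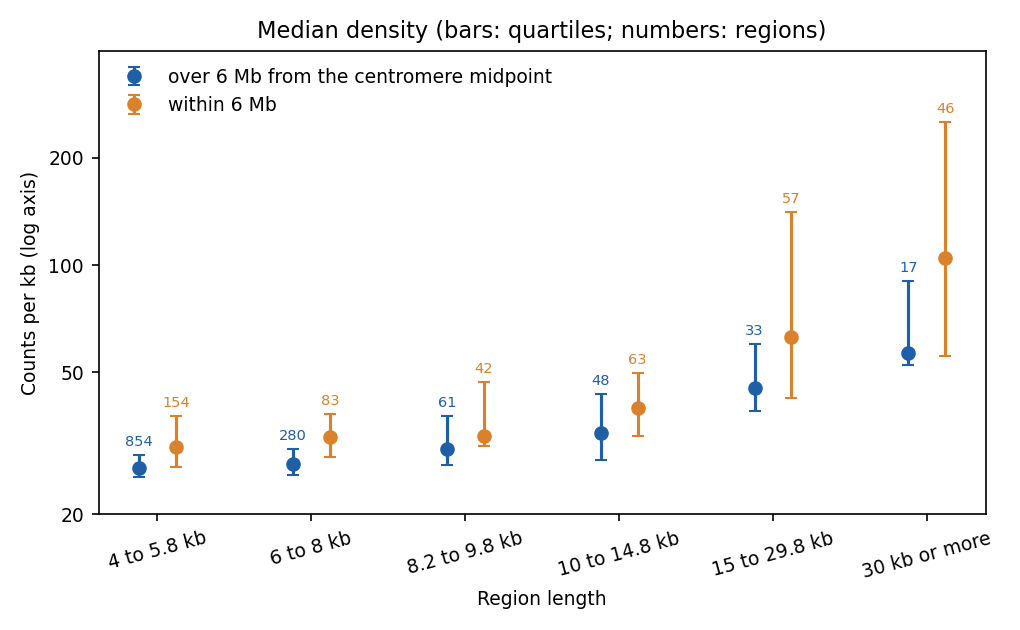
Median counts per kb (log axis) by length class for autosomal regions over 6 Mb from the centromere midpoint (blue) and within 6 Mb (orange), with bars for the quartiles and the number of regions above each. Both medians rise from 6 kb on, and at 30 kb or more they stand at 56.8 and 104.6.

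The 5 densest members were scattered. The highest, 659 counts per kb (interval 642 to 677), was a region of only 8.4 kb on chromosome 1 (142535401 to 142543800, 5536 counts), the first listed after the stretch of 21.1 Mb. Next came 32.6 kb on 2q (133018601 to 133051200) with 9039 counts and 277 counts per kb, then the 64.6 kb region at the 9q edge with 148.8. An 8.4 kb region on chromosome 19 (44912801 to 44921200, 1175 counts) had 139.9 counts per kb (interval 132.0 to 148.1), and the last of the 5 was the 27.4 kb region at the end of 10q. The 5 members with the highest counts held 26.01% of the count in 10.1% of the covered length, and 3 of them were among the 10 longest. Per chromosome, the longest members elsewhere included 30.6 kb on 6q (161038001 to 161068600, 78.7 counts per kb), 39.6 kb on 19p (8858801 to 8898400, 56.8), 23.2 kb on 16q (55842201 to 55865400, 39.0), 19.8 kb on 7q (102219801 to 102239600, 41.4) and 23.4 kb on 13q (112950001 to 112973400, 56.4).

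At the other end, the 5 least dense members had 21.6 to 23.8 counts per kb. They were on 1p (34426201 to 34435400, 199 counts), 16q (78305201 to 78314000, 201 counts), 19q (46707601 to 46716600, 208 counts) and 20q (53464401 to 53478400, 333 counts, and 54353001 to 54361600, 205 counts). The first of these had an interval of 18.7 to 24.9 and the last one of 20.7 to 27.3, so the order among the 5 is within counting error. All but the 14 kb region on 20q, the longest member of that chromosome, were under 10 kb.

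Long regions often had close neighbours. Another listed region of any length lay within 10 kb of 88 of the 159 (55.3%), against 21.4% of the shorter regions beyond the distance limit and 75% of the long regions near centromeres. Members were often each other's neighbours and regions are not replicates, so these shares are descriptions without an error. Without the 1q and 9q edges the share was 50% of 128. Within 2 kb the share was 34.0% for the members and 7.47% for shorter regions. Regions under 800 bp apart do not occur in the list. Joining all regions under 2 kb apart before applying the rule gave 195 long regions, of which 12 held at least 2 of the members and 50 held none. Joining those under 5 kb apart gave 246, and the longest was then 130.2 kb at the end of 4q (190470201 to 190600400).

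A smaller number were isolated. Only 3 members were 1 Mb or more from any other listed region, or 1.89%, against 9.19% of the shorter regions. On chromosome 15 a member of 19.8 kb (43951001 to 43970800, 687 counts, 34.7 counts per kb) lay 5385.2 kb from the nearest other region. Another there, of 11.4 kb (34818001 to 34829400, 325 counts, 28.5 counts per kb), lay 3678 kb from its own nearest region. The last was on 2q (232703601 to 232714400, 10.8 kb, 470 counts, 43.5 counts per kb). By number of listed regions within 1 Mb, members with 0 to 4 had a median density of 40.9 counts per kb (34 members on 15 chromosomes), those with 5 to 19 had 36.99 (75 members), and those with 20 or more had 30.4 (50 members on 9 chromosomes). Median length differed little among these groups, at 11.2, 10.8 and 10.6 kb.

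Members under 100 kb apart were joined into runs. This gave 107 runs, of which 81 were single members and 26 held 2 or more. Those 26 held 78 members (49.1%) and 54.5% of the covered length. The longest run was at the 1q edge, from 142535401 to 142927200, with 9 members and 178.2 kb covered. Its first region was the one at 659 counts per kb, and the other 8 lay between 39.1 and 46.4. Runs of 5 lay at the 9q edge (68393401 to 68509200, 102.2 kb covered) and on 3p (75712201 to 75837400, 75 kb covered). In order along the chromosome, the densities at the 9q edge were 107.5, 110.9, 44.1, 43.5 and 54.7 counts per kb, and those on 3p were 55.8, 58.1, 58.2, 71.0 and 32.6. Both runs thus held a step between neighbours, after the second member at 9q and before the last on 3p. Runs of 4, tied in number, were the 2 already described on chromosome 4, one at the 1q edge (143393201 to 143504600, 33.8 to 42.4 counts per kb) and one on 16p (22562401 to 22692000, 31.3 to 36.3).

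Most neighbouring long regions differed little in density. The ratio of the higher to the lower density had a median of 1.05 over 26 pairs of neighbouring members under 10 kb apart, 1.13 over 26 pairs from 10 to under 100 kb apart, 1.13 over 26 pairs from 100 kb to under 1 Mb apart, and 1.29 over 61 pairs on the same chromosome 1 Mb or more apart. It was under 1.5 for 92.3%, 88.5%, 80.8% and 70.5% of these pairs. Within the 26 runs of 2 or more, the highest density was under 1.5 times the lowest in 21, with a median ratio of 1.18. In the other 5 it was 1.83 on 7q, 2.18 on 3p, 2.31 at the end of 10q, 2.55 at the 9q edge and 16.8 in the first run at the 1q edge. The run on 7q (102219801 to 102302200) had 3 members, with 41.4, 59.9 and 32.7 counts per kb. On chromosome 19, which is rich in KRAB zinc finger genes, 2 runs of 3 members lay on 19q: 36759601 to 36799600 had 41.2, 41.4 and 39.6 counts per kb, and 37760801 to 37791800 had 36.9, 39.0 and 46.3. Counting the shorter regions between them, H3K9me3 regions covered 94% of the first stretch of 40 kb and 91.6% of the second of 31.0 kb. On 16q the run of 3 between 70925601 and 71044800 had 36.3, 36.1 and 34.9 counts per kb, but there all listed regions covered 39.8% of the stretch. The last run of 3, on 20q between 40790401 and 40910200, had 28.9, 30.4 and 25.9.

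**Figure D5:**
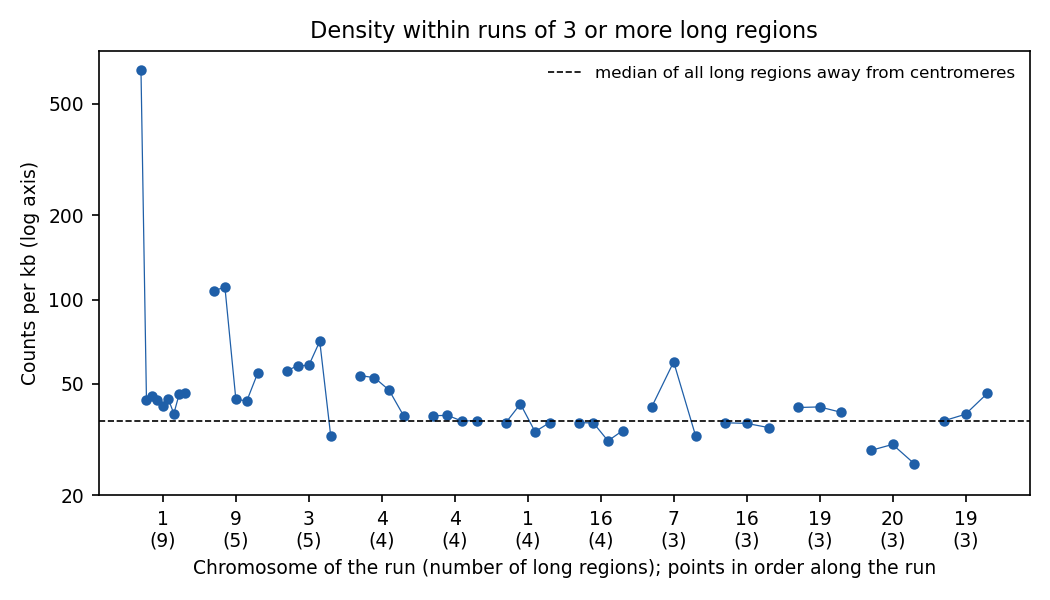
Counts per kb (log axis) of each long region in the 12 runs with 3 or more members, with points in order along the run and a dashed line at the median of all 159 (36.8). Most runs are flat, and the first region at the 1q edge, at 659 counts per kb, stands apart from the other 8 of its run.

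Members on 3q, 16q, 13q and 20q, picked out after their values were seen, were mostly under 15 kb and of low density. On 3q, 8 of the 9 members lay between 133688401 and 140794000, measured 8.4 to 12 kb and had 231 to 343 counts. Their densities were 25.3 to 32.3 counts per kb, with 29 to 51 other listed regions within 1 Mb. The remaining 3q member (195506001 to 195515600, 9.6 kb, 383 counts) had 39.9 counts per kb and 3 other regions within 1 Mb. On 16q, 12 members measured 8.2 to 23.2 kb and had densities from 22.8 to 39.0 counts per kb, with a median of 29.9 and 6 to 37 other listed regions within 1 Mb. On 13q, 6 of the 7 members measured 8.2 to 12 kb with 25.9 to 30.1 counts per kb and 3 to 27 other regions within 1 Mb, and the seventh was the 23.4 kb region with 56.4. The densities of those 8 members on 3q and of the 20q members, with medians of 27.6 and 26.6 counts per kb, overlapped those of regions of 4 to 8 kb, whose median was 27.1. Low density did not go with every crowded stretch. The 18 members on 1q between 142535401 and 148927800 had a median of 31 other listed regions within 1 Mb and a median density of 42.0 counts per kb.

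How the share of long regions near the ends of the listed span stood to that of shorter ones varied with the width taken. Of the 159, 125 (78.6%) were on long arms, against 83.8% of the shorter regions beyond the distance limit. The outer 5 Mb of the span between the first and last listed region of a chromosome held 32 members, or 20.1%, against 22.1% of the shorter regions. Chromosome 4 supplied 9 of these 32, and without that chromosome the shares were 15.8% and 21.6%. For the outer 2 Mb the shares were 11.9% and 11.0%, and for the outer 10 Mb they were 32.1% and 37.6%. Within 0.2 Mb of the end of the span the share was 8.18% (13 of 159), against 3.46% of shorter regions. Those 13 included 3 on chromosome 4, 2 each on chromosomes 9, 10 and 19, and 1 each on chromosomes 6, 12, 14 and 15. On chromosome 9 the first listed region begins at 38441401, so these 2 members (38451001 to 38460400 and 38539001 to 38548000) are not at the chromosome end. They and the shorter regions of 9p beyond the distance limit also count in the outer 5 and 10 Mb. On chromosomes 13, 14, 15 and 22 no region was listed on the short arm, so the span starts on the long arm near the centromere. The 22q member at 21569601, 6.60 Mb from the midpoint, thus counts in the outer 10 Mb. On chromosome 19 the listed span ends with a member (58126001 to 58134600). For the members outside chromosome 9, distances to the chromosome ends themselves were not computed. Members in the outer 5 Mb had a median length of 9.8 kb and a median density of 38.1 counts per kb, and the others had 11.4 kb and 36.4.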

How the data were processed

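Chromatin from BJ-HELT cells was precipitated with an antibody against H3K9me3 and sequenced from SOLiD libraries, per the labels' protocols, with 2 precipitates and 2 inputs. They do not say whether the replicates were separate cultures. The submitters' processing notes name Bowtie (an aligner), SICER (which calls broad regions), hg19 and GRCh37; settings, threshold and pooling are not given in the sources used for this account. The authors deposited 1 list with an unnamed whole number per region, read here as a raw ChIP read count from the SICER form of the list, where regions start on a grid of 200 bp. Library depth is unknown.

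Scripts applied the length and distance rules to this list, divided counts by length, joined members under 100 kb apart into runs and computed medians, shares and intervals. Joining and selection were tested on simulated data. No test between samples was possible. Members, comparisons and gene families were chosen with earlier results of these data known. Named were the 10 longest, the 5 highest counts, the 5 highest and 5 lowest densities, the runs with most members (7, through ties), the longest per autosome, those at the limits and the 3 most isolated; others were named after their values were seen. Genes were matched by name only in a RefSeq table on GRCh38.p14, whose positions were not used. Computations ran in Python 3.11.15 with pandas 2.3.3, numpy 2.4.6 and scipy 1.17.1, and plots in matplotlib 3.10.9.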

Additional observations from a re-analysis of the deposited data

How the results depend on the processing

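No paired analysis was possible because all libraries share a single count per region, which also means that leaving out a replicate was not possible. Of 42 alternatives, 34 stayed within 1.5 times the value reported or, for shares, within its 95% Wilson interval. That interval was used only as a tolerance since regions are not replicates, and 7 of the 42 were chosen after the data were examined. For the density ratios of 1.23 and 0.76 the tolerance is wide, since a ratio in the opposite direction could also stay within it. Their alternatives ran from 1.17 to 1.36 and from 0.71 to 0.83. A length minimum of 10 kb left 98 regions, and one of 6 kb gave 439 regions over 4527.4 kb, as a change of minimum implies. Joining regions under 5 kb apart gave 246 long regions. The sum of counts over the sum of lengths was 59.2 counts per kb, above the median of 36.8, because the few longest and densest members weigh more. The share in the outer zone was 11.9% for 2 Mb and 32.1% for 10 Mb, and the share with a neighbour within 20 kb was 69.8%. With distance counted from the edge of the stretch without regions at the centromere, the median density was 34.9 counts per kb and the ratio to shorter regions 1.17. Every member passed a filter at the median count of the list, but this filter could remove none. The lowest count of a member was 199 and the median of the list was 112. The unchanged number and covered length under this filter, both among the 34, thus say nothing about stability.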
